A study of Mus musculus with 4 samples.

Results

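Retinoic acid is a hormone-like derivative of vitamin A that cells make and destroy locally. The 9 genes described here encode its main enzymes, carriers and one of its receptors: Rdh10, Dhrs3, Aldh1a1, Aldh1a2, Aldh1a3, Crabp1, Crabp2, Rarb and Cyp26b1. They were taken by symbol, 9 of 55536 rows of the deposited table, and each symbol matched 1 row. The set was proposed with results of these 4 libraries already known. All levels and ratios of these 9 genes are therefore given as a description, with no test.

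RNA came from the stromal vascular fraction of inguinal white adipose tissue, that is, the cells of a fat depot other than its fat-laden adipocytes, in wild-type male mice at postnatal day 21. There were 4 groups of 1 library each: ObF1 with 1,3BD, LnF1 with 1,3BD, ObF1 with water and LnF1 with water, in a study on how parental obesity programs adipose progenitors, as its title puts the question. Each library was a pool of 3 mice, so no group has a replicate, and differences between pools of the same group were not measured. The labels call the agents water and 1,3BD and do not expand the second name. Depth was between 24586827 and 26000090 reads. Values are read counts scaled to library size (CPM), and 1 read was worth 0.0359 to 0.0434 CPM. Brackets give 95% exact counting intervals, which cover counting error and not the spread between animals.

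Retinol is oxidised to retinaldehyde by RDH10, and DHRS3 reduces retinaldehyde back to retinol. ALDH1A1, ALDH1A2 and ALDH1A3, the retinaldehyde dehydrogenases, carry out the irreversible step to retinoic acid. CRABP1 and CRABP2 bind retinoic acid in the cytoplasm, receptors such as RARB act on genes in the nucleus, and CYP26B1 oxidises retinoic acid to inactive products. Dhrs3, Rarb and, in many tissues, the CYP26 genes are themselves induced by retinoic acid, and in fat the pathway is known to act on preadipocyte differentiation and on energy use.

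A promoter of Rarb is shown because it carries the textbook retinoic acid response element. That of Aldh1a2 is shown because this gene had the widest range of levels among the 9. Sequences are those of RefSeq on GRCm38.p6 (mm10), 5′ to 3′ on the strand of the gene, 250 bases up to the base before the annotated start. They lie at chr14:16575477-16575726 on the minus strand for Rarb and at chr9:71215539-71215788 on the plus strand for Aldh1a2. The Rarb window lies inside the gene as annotated, 16430839 to 16819156, and the Rarb level given below is for the whole gene. Capitals mark a direct repeat of the receptor-binding hexamer with a spacing of 5 bases.
Rarb: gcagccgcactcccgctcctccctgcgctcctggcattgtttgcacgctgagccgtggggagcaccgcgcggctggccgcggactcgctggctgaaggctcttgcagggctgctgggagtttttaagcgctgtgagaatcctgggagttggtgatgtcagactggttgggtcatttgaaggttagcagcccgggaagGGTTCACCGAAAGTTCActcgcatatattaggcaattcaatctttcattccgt
Aldh1a2: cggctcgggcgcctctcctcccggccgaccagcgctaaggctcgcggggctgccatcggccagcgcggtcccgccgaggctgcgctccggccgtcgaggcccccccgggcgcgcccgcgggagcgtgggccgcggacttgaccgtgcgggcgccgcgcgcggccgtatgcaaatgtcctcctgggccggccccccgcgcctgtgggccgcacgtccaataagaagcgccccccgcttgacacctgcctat

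The search used the hexamer NGNTCA repeated after 5 bases or after 2 bases of any kind, where N is any base, and AGGTCA as the single hexamer, on both strands. A repeat can hold a single hexamer within it. Windows held 250 bases before and 50 after the start, and 6 of the 9 genes had at least 1 window there (9 windows in all). Rarb held the only match among these 9 windows, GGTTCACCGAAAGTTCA at chromosome 14, 16575513 to 16575529, whose first base lay 53 bases before the start. The shares of all 32851 windows with a match were 0.861% for the spacing of 5, 1.11% for the spacing of 2 and 16.2% for the single hexamer. A match of letters shows no binding, and the absence of one says only that these letters are not in the window.

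**Figure D1:**
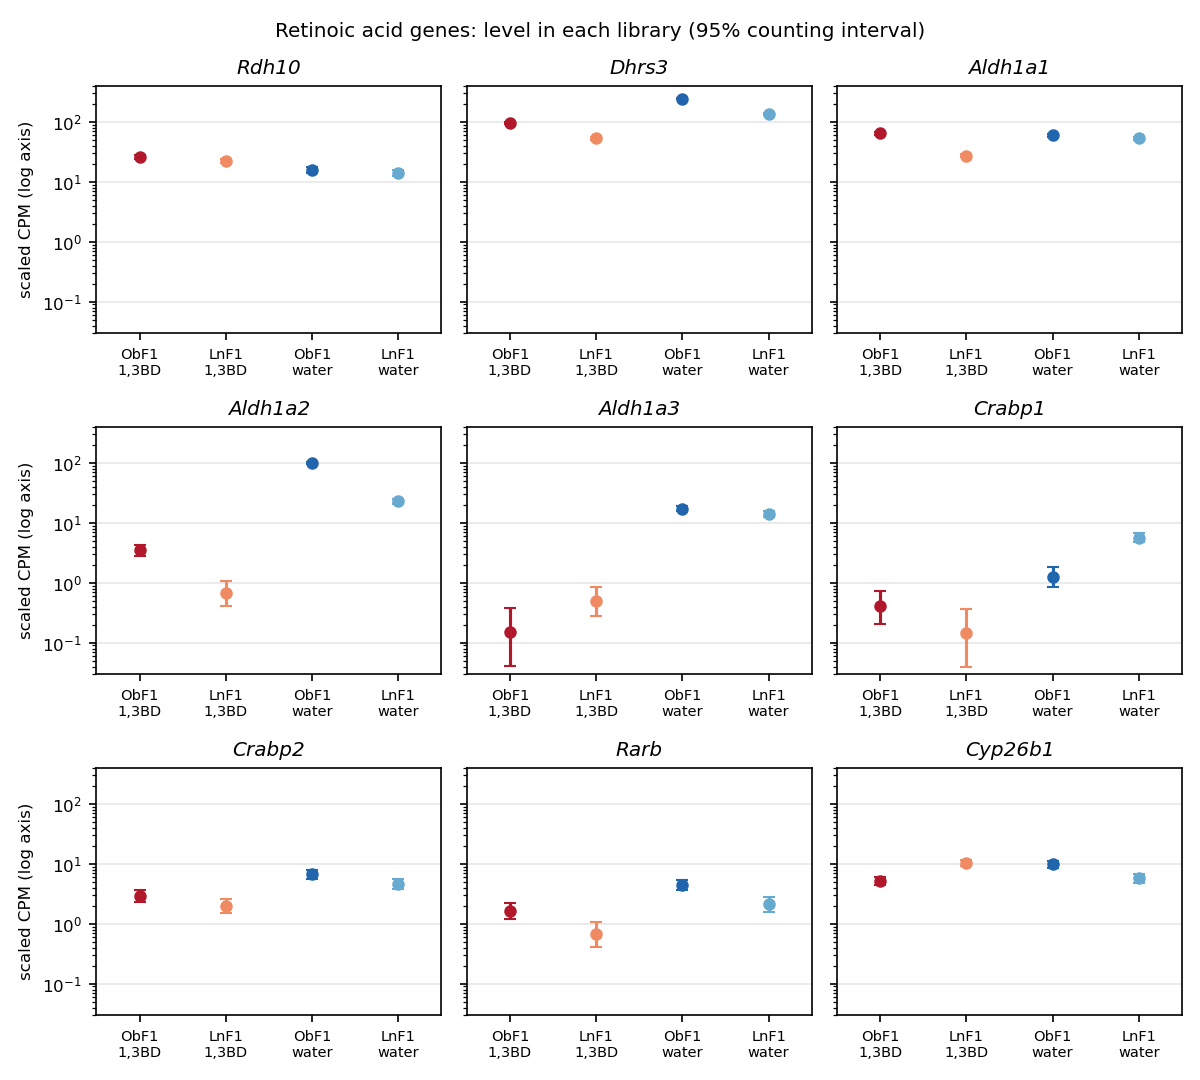
Scaled CPM of the 9 genes (log axis) in the 4 libraries, 1 point per library, with bars for the 95% counting interval. Aldh1a2 ranged from 0.681 to 102 CPM and Aldh1a3 from 0.150 to 17.3 CPM, with both water libraries above both 1,3BD libraries for each, while Rdh10 kept between 14.1 and 25.7 CPM.

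Rdh10 and Dhrs3, which act on the step between retinol and retinaldehyde, ran in opposite directions with 1,3BD. Rdh10 (chromosome 1, 16105774 to 16133734, plus strand) had 25.7 CPM in ObF1 1,3BD and 22.7 in LnF1 1,3BD, against 15.7 in ObF1 water and 14.1 in LnF1 water. Both 1,3BD libraries were above both water libraries, 1.64-fold (1.44 to 1.86) in ObF1 and 1.61-fold (1.41 to 1.84) in LnF1. Between parental groups Rdh10 was 1.14-fold (1.02 to 1.27) in 1,3BD and 1.12-fold (0.959 to 1.30) in water, ObF1 over LnF1, and the water interval includes 1.

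Dhrs3 (chromosome 4, 144892827 to 144928209, plus strand) was the most abundant of the 9 per kilobase of exon in every library. It had 97.5 CPM in ObF1 1,3BD and 53.5 in LnF1 1,3BD, against 247 in ObF1 water and 137 in LnF1 water. The ObF1 library was above the LnF1 library in each treatment, by 1.82-fold (1.71 to 1.94) in 1,3BD and 1.80-fold (1.72 to 1.88) in water. The 1,3BD libraries were below the water libraries at 0.394 (0.376 to 0.413) of the level in ObF1 and 0.390 (0.366 to 0.414) in LnF1. These pairs of ratios differed by less than their counting intervals.

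The 3 retinaldehyde dehydrogenase genes behaved unlike one another. Aldh1a2 (chromosome 9, 71215789 to 71296243, plus strand), the main source of retinoic acid in the mouse embryo, had 3.49 CPM in ObF1 1,3BD (93 reads) and 0.681 in LnF1 1,3BD (19 reads), against 102 in ObF1 water and 22.9 in LnF1 water. The 4 libraries were all apart, with ObF1 water highest and LnF1 1,3BD lowest, a range of 149-fold. ObF1 was above LnF1 by 5.12-fold (3.10 to 8.88) in 1,3BD and by 4.45-fold (4.05 to 4.89) in water, ratios that overlap in their intervals. With 1,3BD the level was 0.0343 (0.0276 to 0.0422) of that with water in ObF1 and 0.0298 (0.0178 to 0.0470) in LnF1.

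Aldh1a3 (chromosome 7, 66390890 to 66427517, minus strand) had 0.150 CPM in ObF1 1,3BD (4 reads) and 0.502 in LnF1 1,3BD (14 reads), against 17.3 in ObF1 water and 14.0 in LnF1 water. It was thus nearly undetected in both 1,3BD libraries, at 0.00867 (0.00235 to 0.0224) of the water level in ObF1 and 0.0358 (0.0194 to 0.0610) in LnF1. ObF1 over LnF1 was 0.299 (0.0716 to 0.951) in 1,3BD, which rests on 4 and 14 reads, and 1.23 (1.06 to 1.43) in water.

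Aldh1a1 (chromosome 19, 20492715 to 20643465, plus strand), a main retinaldehyde dehydrogenase of adult fat, kept a high level in 3 libraries. It had 64.6 CPM in ObF1 1,3BD and 27.5 in LnF1 1,3BD, against 59.7 in ObF1 water and 53.7 in LnF1 water, so that LnF1 1,3BD alone stood low. ObF1 was above LnF1 by 2.35-fold (2.16 to 2.56) in 1,3BD and by 1.11-fold (1.03 to 1.20) in water.

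**Figure D2:**
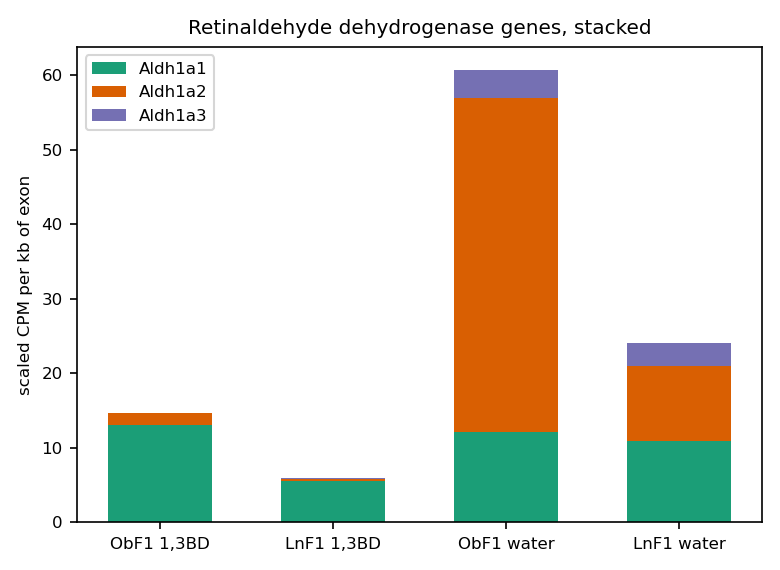
Scaled CPM per kilobase of exon of the 3 retinaldehyde dehydrogenase genes, stacked, in the 4 libraries. The sum was 14.7 in ObF1 1,3BD, 5.98 in LnF1 1,3BD, 60.8 in ObF1 water and 24.0 in LnF1 water, and Aldh1a2 made up most of it in ObF1 water only.

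Set on a scale per kilobase of exon, the makeup of this enzyme group differed between libraries. Aldh1a1 gave 89.3% of the summed CPM per kilobase in ObF1 1,3BD and 93.2% in LnF1 1,3BD, against 19.9% in ObF1 water and 45.3% in LnF1 water. Aldh1a2 gave 10.5% in ObF1 1,3BD and 5.03% in LnF1 1,3BD, against 74.0% in ObF1 water and 42.1% in LnF1 water. The share of Aldh1a3 was 0.222%, 1.82%, 6.16% and 12.6% of the summed CPM per kilobase in ObF1 1,3BD, LnF1 1,3BD, ObF1 water and LnF1 water. Aldh1a2 led in ObF1 water, Aldh1a1 led in both 1,3BD libraries, and in LnF1 water the levels of Aldh1a1 (10.9 CPM per kilobase) and Aldh1a2 (10.1) were close. Exon lengths come from the GENCODE M21 gene models (4.937 kb for Aldh1a1, 2.264 for Aldh1a2 and 4.617 for Aldh1a3), which sum the exons of all transcripts, so the shares depend on those models.

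Of the carriers, Crabp2 followed the pattern of Dhrs3 at a lower level and Crabp1 did not. Crabp2 (chromosome 3, 87948666 to 87953376, plus strand), which delivers retinoic acid to its receptors, had 2.92 CPM in ObF1 1,3BD and 2.01 in LnF1 1,3BD, against 6.69 in ObF1 water and 4.71 in LnF1 water. ObF1 over LnF1 was 1.46 (1.02 to 2.09) in 1,3BD and 1.42 (1.11 to 1.83) in water, and 1,3BD over water was 0.437 (0.329 to 0.578) in ObF1 and 0.426 (0.303 to 0.593) in LnF1.

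Crabp1 (chromosome 9, 54764748 to 54773110, plus strand) had 0.412 CPM in ObF1 1,3BD (11 reads) and 0.143 in LnF1 1,3BD (4 reads), against 1.26 in ObF1 water (29 reads) and 5.69 in LnF1 water (134 reads). LnF1 water stood above the other 3 libraries, and Crabp1 was the 1 gene of the 9 below LnF1 in ObF1 water, at 0.222 (0.143 to 0.333) of its level. In 1,3BD the ratio of ObF1 over LnF1 was 2.88 (0.852 to 12.4), an interval that includes 1.

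Rarb (chromosome 14, 16430839 to 16819156, minus strand), the receptor gene with a promoter printed above, was scarce. It had 1.65 CPM in ObF1 1,3BD (44 reads) and 0.681 in LnF1 1,3BD (19 reads), against 4.52 in ObF1 water (104 reads) and 2.12 in LnF1 water (50 reads). ObF1 was above LnF1 by 2.42-fold (1.38 to 4.39) in 1,3BD and by 2.13-fold (1.51 to 3.05) in water, and 1,3BD was below water at 0.365 (0.251 to 0.524) of its level in ObF1 and 0.321 (0.179 to 0.554) in LnF1. Exons of Rarb overlap exons of Top2b on the other strand in the annotation. Top2b had 201 CPM in ObF1 1,3BD, 183 in LnF1 1,3BD, 160 in ObF1 water and 161 in LnF1 water. Whether the counting used strand is not given in the sources used here, so reads of the 2 genes in the overlap cannot be told apart.

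Cyp26b1 (chromosome 6, 84571414 to 84593908, minus strand), the degrading enzyme, crossed over. It had 5.21 CPM in ObF1 1,3BD and 10.5 in LnF1 1,3BD, against 9.95 in ObF1 water and 5.82 in LnF1 water. ObF1 was thus below LnF1 in 1,3BD, at 0.496 (0.402 to 0.609) of its level, and above it in water, by 1.71-fold (1.38 to 2.13). With 1,3BD the level was 0.524 (0.421 to 0.650) of that with water in ObF1 and 1.81 (1.47 to 2.23) in LnF1. With 1 library per group, no test of this difference between treatments was possible.

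**Figure D3:**
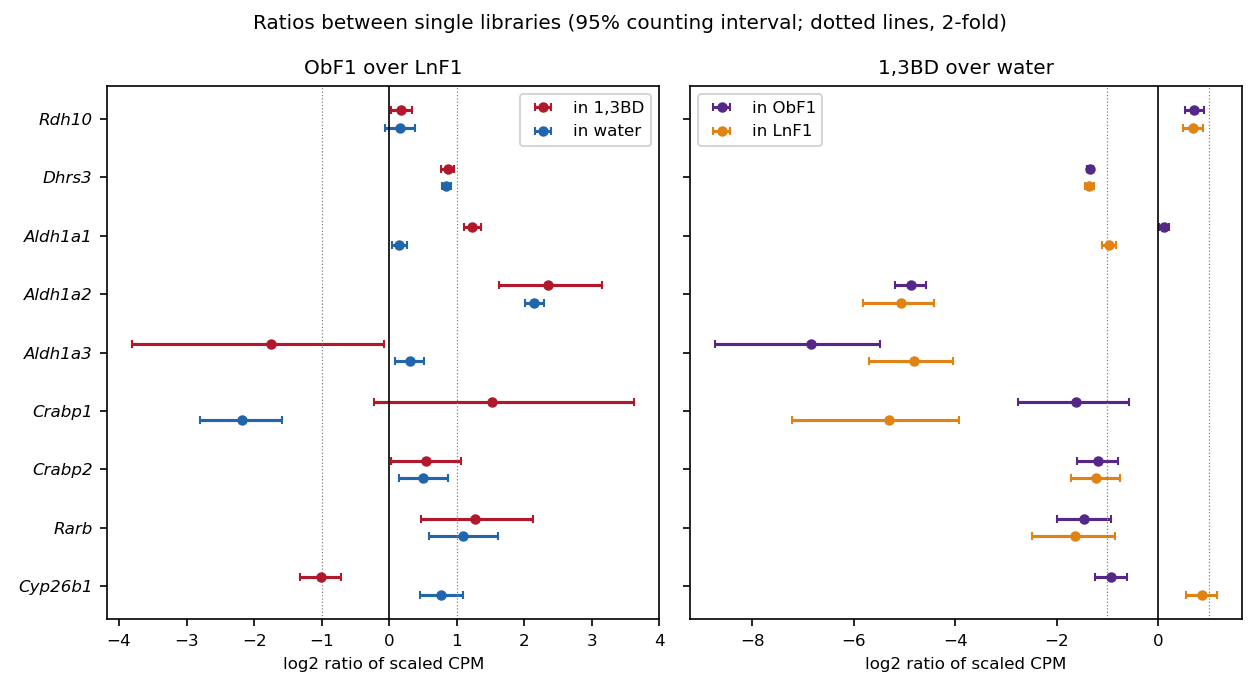
Log2 ratios of scaled CPM between single libraries for the 9 genes, ObF1 over LnF1 (left) and 1,3BD over water (right), with bars for the 95% counting interval and dotted lines at 2-fold. Dhrs3, Aldh1a2, Crabp2 and Rarb lie right of 0 in both treatments on the left and left of 0 in both parental groups on the right, while Cyp26b1 changes sides in each.

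Between parental groups, 6 of the 9 genes were higher in ObF1 in both treatments and 0 were lower in both: Rdh10, Dhrs3, Aldh1a1, Aldh1a2, Crabp2 and Rarb. Of the 4 genes that reached a mean of 5 CPM in both pairs, 3 were higher in both and 0 lower, where the background was 32% of such genes higher and 27.4% lower. For 5 of the 6, all but Rdh10, both counting intervals lay above 1, a count for which no share over all genes was taken. The median log2 difference of the 9 genes was 0.86 in 1,3BD and 0.50 in water, beside 0.02 and 0.00 for the 12838 genes tested. At least 2-fold and at a mean of at least 5 CPM over the pair, Aldh1a1 was higher and Cyp26b1 lower in 1,3BD, out of 4 of the 9 genes that reached that mean, where the background was 1.77% of all genes higher and 2.56% lower. In water Aldh1a2 was higher and 0 were lower of the 7 that reached it, with a background of 1.98% higher and 1.52% lower. Since the 9 genes were proposed with these values known, nothing is read from those counts.

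With 1,3BD, 7 of the 9 genes were lower than with water in each parental group, and each of these intervals lay below 1. They were the same genes except 1: Aldh1a1 was among them in LnF1 alone and Cyp26b1 in ObF1 alone. Rdh10 was higher in both. For these counts of any size, no share over all genes was taken. Aldh1a3 and Crabp1 passed the filter of 1 CPM only through the water libraries, where they were high, so that they had to be lower with 1,3BD. The median log2 difference of the 9 genes was -1.34 in ObF1 and -1.36 in LnF1, beside -0.06 in each for the 12838 genes tested. At least 2-fold and at a mean of at least 5 CPM, Aldh1a2, Aldh1a3 and Dhrs3 were lower in both parental groups, of 6 genes that reached that mean in each. Aldh1a2 and Aldh1a3 reached it only through the water libraries, so that they had to be lower. The background was 17.3% of all genes lower and 11% higher in ObF1, and 14.1% lower and 8.81% higher in LnF1. The genes were proposed with these values known, and nothing is read from the counts or the medians.

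The other genes of the pathway came from a list of 62, chosen by textbook role and not by how they moved. All 62 were in the table, and 39 passed the filter of at least 1 CPM in at least 2 libraries. They were tested in a limma fit over all 12838 genes, additive in parents and treatment, which left 1 residual degree of freedom. The error it estimates is how far a parental difference varied between treatments, and a treatment difference between parental groups, and holds no measure of variation among animals.

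With 1,3BD, 10 of the 39 rose and 10 fell at an adjusted p of at most 0.05, 25.6% in each direction, beside a background of 19.2% of all genes higher and 24.8% lower. The list's shares lie near those of the table. With library totals in place of the authors' scaling, 13 rose and 7 fell, beside 3687 higher and 2270 lower among all genes, against 2466 and 3189. Its median log2 difference was -0.08, against -0.06 for all genes tested.

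Among genes of retinoid uptake and storage, Scarb1, a lipoprotein and carotenoid uptake receptor, had 12.6 CPM in ObF1 1,3BD and 22.7 in LnF1 1,3BD, against 37.1 in ObF1 water and 32.9 in LnF1 water. It fell, with a log2 difference of -1.04 (SE 0.27), a call lost without LnF1 water, ObF1 water or ObF1 1,3BD (adjusted p = 0.106 to 0.145 in limma). Retsat, retinol saturase, rose by 0.63 with an SE of 0.23 (adjusted p = 0.0443 in limma), a call that ended with DESeq2 (adjusted p = 0.0620), with no filter on low values (0.0570), with no covariate (0.109) and when any 1 library was left out (0.0569 to 0.430). Lrat, which esterifies retinol for storage, had 0 reads in every library, and Stra6, the receptor for plasma retinol-binding protein, had at most 1 read. For scale, 3 reads were worth 0.108 to 0.130 CPM, depending on the library. Lrat and Stra6 are named after their values were seen.

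Among 10 other enzymes tested, 2 rose and 3 fell. Rdh14, a retinol dehydrogenase, had a log2 difference of 0.69 and Aox1, an aldehyde oxidase that can oxidise retinaldehyde, one of 1.11, and both rose. The call for Rdh14 ended with no covariate (adjusted p = 0.0545 in limma) and without LnF1 water, ObF1 water or ObF1 1,3BD (0.148 to 0.262), and that for Aox1 without ObF1 water (0.123). Adh1 (-2.07) and Adh7 (-1.13), alcohol dehydrogenases that oxidise retinol, and Dhrs4 (-0.68) fell. With DESeq2, Adh7 (adjusted p = 0.0755) and Dhrs4 (0.0834) did not pass, nor did they with library totals in limma (0.0576 and 0.151) or when any 1 library was left out. The call for Dhrs4 also ended with no covariate (adjusted p = 0.0538 in limma). For Adh1 the call ended with no covariate (adjusted p = 0.156 in limma), and the difference was -0.67 without LnF1 water (0.616), -3.02 without LnF1 1,3BD (0.180) and -1.13 without ObF1 1,3BD (0.631). Rdh11 did not pass, at 0.44 with an SE of 0.21 (adjusted p = 0.103 in limma). Cyp26a1 and Cyp26c1, the other CYP26 genes, had 0 reads in every library, which leaves Cyp26b1 as the detected one.

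Receptors and cofactors were split, with 5 of 13 higher and 3 lower. Rarg, the gamma retinoic acid receptor, had 31.7 CPM in ObF1 1,3BD and 42.7 in LnF1 1,3BD, against 120.4 in ObF1 water and 100.2 in LnF1 water. The log2 difference was -1.58 with an SE of 0.23 (adjusted p = 3.00e-04 in limma). Rara and Rxra, named after their values were seen, did not pass, at -0.17 (SE 0.22) and -0.36 (SE 0.20). Fabp5, a fatty acid carrier that can also bring retinoic acid to PPAR delta, had a difference of -2.86 with an SE of 0.29 (adjusted p = 7.19e-05 in limma) and fell. Nrip1, a retinoid-inducible corepressor gene, rose by 1.55, and Ncor1, a corepressor of nuclear receptors, by 0.94, a call lost without LnF1 water, ObF1 water or ObF1 1,3BD (adjusted p = 0.0571 to 0.124 in limma). Rere (0.64), Ncoa2 (0.63) and Ncoa1 (0.60), coregulator genes, rose as well, but each call ended when any 1 library was left out, and that for Ncoa1 also with no covariate (adjusted p = 0.0568 in limma).

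Of 13 tested genes known as targets of retinoic acid, 2 rose and 2 fell. Tgm2, tissue transglutaminase, had 5.85 CPM in ObF1 1,3BD and 4.63 in LnF1 1,3BD, against 251 in ObF1 water and 86.2 in LnF1 water. The log2 difference was -4.80 with an SE of 0.29 (adjusted p = 2.39e-06 in limma). Without LnF1 1,3BD or without ObF1 1,3BD the difference of Tgm2 was -4.63 and -4.97, and the call ended (adjusted p = 0.0645 and 0.0616). Rarres2, which encodes chemerin, fell, at -2.15 (SE 0.43), a call lost without ObF1 water, where the difference was -1.89. It passed the filter of 1 CPM only through the water libraries, so that it had to be lower. Rarres2 had 0.712 CPM in ObF1 1,3BD and 0.574 in LnF1 1,3BD, against 3.74 in ObF1 water and 2.59 in LnF1 water. Nr2f2, which encodes the nuclear receptor COUP-TFII, rose by 1.25 (SE 0.20) and Meis2, a homeobox gene, by 0.77 (SE 0.21), while Meis1 did not pass (0.37, SE 0.24). The calls for Nr2f2 and Meis2 ended without LnF1 water (adjusted p = 0.0879 and 0.122 in limma) and without ObF1 1,3BD (0.0531 and 0.0806), and that for Meis2 without ObF1 water (0.126). Of the 20 calls in the 4 roles, 4 passed in every alternative run, Rarg, Fabp5 and Nrip1 among them, 9 were lost only when a library was left out and 7 also in another setting.

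**Figure D4:**
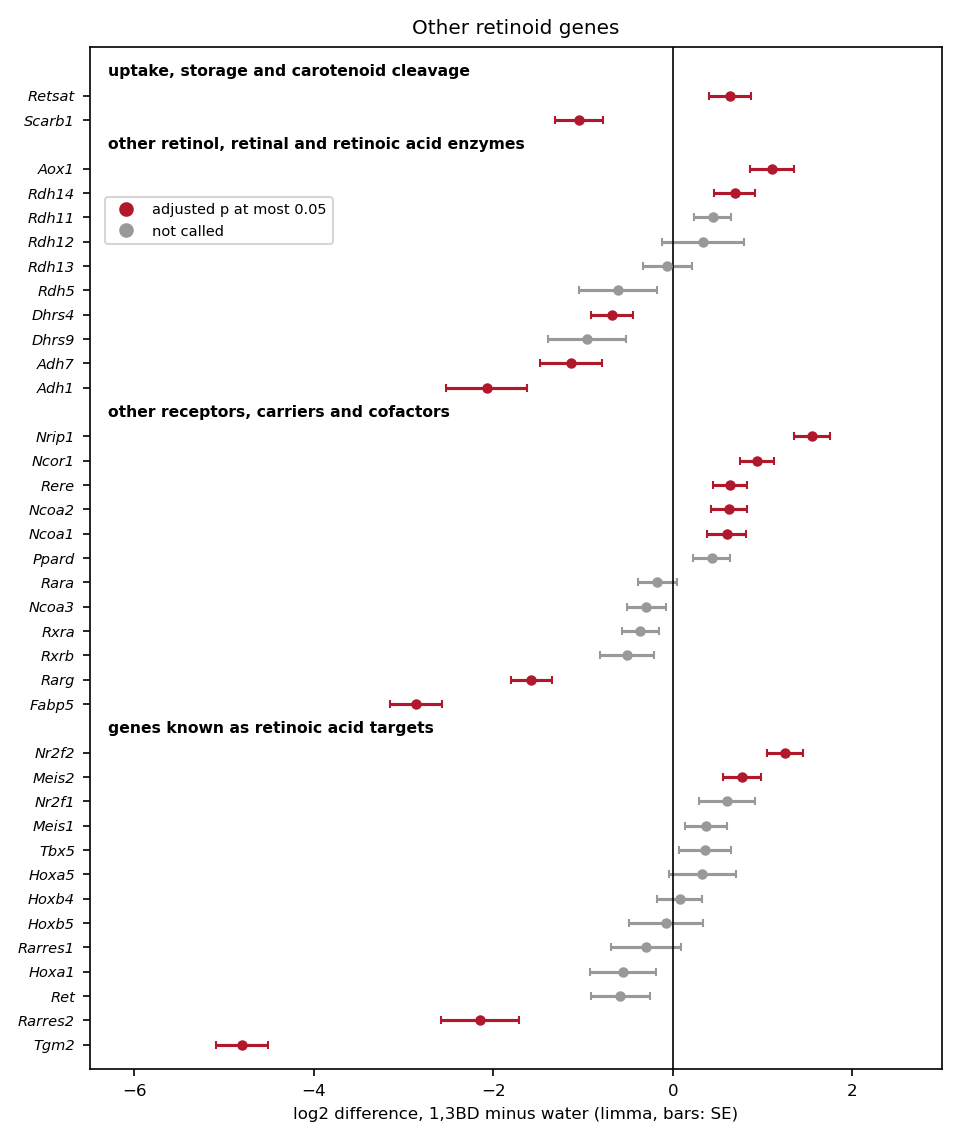
Log2 difference of 1,3BD minus water for 37 of the 39 other retinoid genes tested, by role, with bars for the SE of the limma fit over all genes. Red points passed at an adjusted p of at most 0.05 (10 higher and 8 lower among those drawn), and Tgm2 (-4.80) and Fabp5 (-2.86) were the lowest drawn.

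Between parental groups, 0 of the 39 passed in limma, beside a background of 0.195% of all genes higher in ObF1 and 0.101% lower. At an unadjusted p under 0.05 in limma there were 6 of the 39, beside 1392 of all 12838 genes. The edgeR quasi-likelihood test on recovered reads also called 0 (7 at an unadjusted p under 0.05, beside 1400 of all 12838). DESeq2 called 1 (5 at an unadjusted p under 0.05, beside 971 of all 12838). That gene was Adh1, with 0.300 CPM in ObF1 1,3BD, 1.33 in LnF1 1,3BD, 1.09 in ObF1 water and 8.02 in LnF1 water. Its log2 difference was -2.34 with an SE of 0.45 (adjusted p = 0.0668 in limma and 0.0153 in DESeq2). Tgm2 stood at 0.94 with an SE of 0.29 (adjusted p = 0.267 in limma). Its difference was -1.16 without LnF1 1,3BD, -1.76 without ObF1 water, 3.04 without LnF1 water and 3.64 without ObF1 1,3BD. Those fits drop the covariate and set libraries of different treatments against each other, so nothing is read from their signs. Without a filter on low values, 3 of 57 passed in limma: Adh1, Tgm2 and Ret, a receptor tyrosine kinase gene. Of all 26964 genes in that fit, 196 were called higher in ObF1 and 156 lower.

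Genes whose levels ran most like each member were sought by Euclidean distance between log2 profiles over the 4 libraries, centred on their means, among 9951 genes at a mean of at least 5 CPM. For Aldh1a2 they were Lmcd1 (distance 0.27), Dkk2 (0.60) and Gpr39 (0.80), and 1 gene lay within 0.5. Lmcd1 had 0.750 CPM in ObF1 1,3BD, 0.143 in LnF1 1,3BD, 27.5 in ObF1 water and 5.39 in LnF1 water. For Aldh1a3 they were Foxs1 (0.60), Actg2 (0.65) and Ptprb (0.80), and for Dhrs3 Slc8a1 (0.13), Myadm (0.16) and Klf6 (0.17). For Aldh1a1 they were Sh3kbp1 (0.08), Lrrn4cl (0.15) and Syn1 (0.19), and for Cyp26b1 Spry4 (0.16), Amigo1 (0.23) and Foxo4 (0.26). For Rdh10 they were Rdh14 (0.02), Ccdc93 (0.02) and Arl16 (0.03), with 2319 genes within 0.5, so that its profile was a common one. With 4 libraries such likeness is a description. Crabp1, Crabp2 and Rarb were under the mean and were not searched.

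Markers of cell types also differed between the libraries, and not all of them in the same direction. The 8 progenitor and fibroblast markers summed to 4269 CPM in ObF1 1,3BD and 4994 in LnF1 1,3BD, against 19818 in ObF1 water and 17918 in LnF1 water, most of it from Col1a1. Like Col1a1, F3 and Icam1 were lower with 1,3BD in both parental groups. Pi16 and Dpp4 were lower too, but on few reads. Pi16 had 13 reads in ObF1 1,3BD and 29 in LnF1 1,3BD, against 16 in ObF1 water and 49 in LnF1 water. Dpp4 had 9, 4, 20 and 16 reads in the same order. Cd34 and Ly6a were higher with 1,3BD in ObF1 and lower in LnF1. Cd34 had 14.6 CPM in ObF1 1,3BD, 11.9 in LnF1 1,3BD, 3.56 in ObF1 water and 13.5 in LnF1 water. Ly6a had 202, 219, 182 and 300 CPM in the same order. The mural and myofibroblast markers Acta2, Myh11, Rgs5 and Notch3 summed to 201 CPM in ObF1 1,3BD and 180.4 in LnF1 1,3BD, against 8368 in ObF1 water and 7908 in LnF1 water. Most of the sum was Acta2, which smooth muscle and myofibroblasts share (165 CPM in ObF1 1,3BD, 113 in LnF1 1,3BD, 8097 in ObF1 water and 7692 in LnF1 water). Notch3 differed less, at 24.5 CPM in ObF1 1,3BD and 61.5 in LnF1 1,3BD, against 51.7 in ObF1 water and 70.3 in LnF1 water, and Rgs5 had at most 4.16 CPM. Pdgfra, a marker of progenitors, was present throughout and higher with 1,3BD in both parental groups. It had 412 CPM in ObF1 1,3BD, 281 in LnF1 1,3BD, 236 in ObF1 water and 243 in LnF1 water. The 4 endothelial markers summed to 2.44 CPM in ObF1 1,3BD and 0.717 in LnF1 1,3BD, against 12.9 in ObF1 water and 4.67 in LnF1 water. The 4 Schwann cell markers summed to 1.31, 2.80, 18.9 and 6.75 CPM in the same order, with Sox10 at 8.52 CPM in ObF1 water. The part of these cell types in the values of the 9 genes was not tested. In bulk libraries, fewer cells of a type and less RNA per cell cannot be told apart.

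Markers of further cell types were checked list by list. The 6 white blood cell markers, with those of dendritic cells among them, summed to at most 1.06 CPM, and Cd3e, Cd79b and Flt3 had 0 reads in every library. White blood cells are a usual part of the stromal vascular fraction, and their defining marker Ptprc had at most 0.150 CPM. Of 6 mesothelial markers, Krt19 reached 88.2 CPM in ObF1 water (9.45 in ObF1 1,3BD, 2.94 in LnF1 1,3BD and 55.1 in LnF1 water), while Lrrn4 had 0 reads and Msln, Upk3b, Wt1 and Upk1b reached at most 0.391 CPM. Of the fat cell markers, Adipoq and Lep had 0 reads in every library and Plin1 reached 5.09 CPM in LnF1 1,3BD. Epithelial and skeletal muscle markers summed to at most 0.174 CPM.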

How the data were processed

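The deposited table holds a scaled signal per gene for 4 libraries of pooled stromal vascular cells. Divided by the smallest value in its column, each deposited number came out whole (100% within a relative tolerance of 1e-06). The unit is thus CPM divided by a scaling factor of 0.885 to 1.13 by the authors, and whole reads could be recovered. The submitters' processing notes name mm10, edgeR and DESeq2 without role, while aligner, counter and annotation were not given in the sources used here. The 2 columns that name no agent were matched to water. Scaled values are not counts, so the main test was limma (3.58.1), after adding 0.0796 CPM (the mean worth of 2 reads) and taking log2, with trend and robust moderation. Fold changes there understate those of low genes.

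The 12838 genes that reached 1 CPM in 2 or more libraries were tested. All 9 retinoic acid genes passed, Aldh1a3 and Crabp1 only through the water libraries, where they are high. Adjustment of p-values followed Benjamini and Hochberg, over all genes tested. edgeR (4.0.16, quasi-likelihood) and DESeq2 (1.42.0) on recovered reads were alternatives. The limma step was also run on simulated data with far fewer changed genes than were called for 1,3BD here, and nothing is read from that run. Ratios of single libraries are plain CPM ratios with exact binomial intervals, and levels have exact Poisson intervals. The genes and lists were chosen with earlier results of these data known. The genes named are the 9 members, the list genes that passed or had the highest mean (up to 4 per role), markers, and 3 nearest genes for each member at a mean of at least 5 CPM, without predicted gene models. Genes outside this rule, such as Ret and Top2b, are named after their values were seen. Of the genes that passed, 2 are counted but not reported by name here. Coordinates are those of GENCODE M21 on GRCm38.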

Additional observations from a re-analysis of the deposited data

Results flagged for a closer look

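For 3 of the 9 genes the same contrast pointed in opposite directions in the other treatment or parental group, with both counting intervals clear of 1. With 1 library per group the difference itself was not tested. No share of all genes under this rule was taken, and nothing is read from the count. ObF1 over LnF1 was 0.299 in 1,3BD and 1.23 in water for Aldh1a3, with 4 and 14 reads behind the ratio in 1,3BD. For Cyp26b1 it was 0.496 in 1,3BD and 1.71 in water. The ratio of 1,3BD over water was 0.524 in ObF1 and 1.81 in LnF1 for Cyp26b1, which is the same crossing seen from the other side. For Aldh1a1 it was 1.08 in ObF1 and 0.512 in LnF1, and LnF1 1,3BD was the library that stood low.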

How the results depend on the processing

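No paired analysis was possible because each group has 1 library and the labels give no replicate numbers. Of 36 log2 differences between single libraries for the 9 genes, taken after adding 0.0796 CPM, 0 changed sign with library totals or median-of-ratios scaling. A pseudocount of 1 CPM cannot change a sign, since it adds the same amount to both levels. Beyond the sign, 7 moved past their counting interval with the pseudocount and 8 with library totals, with shifts of -0.84 to 2.25 and of -0.11 to 0.26 on the log2 scale. The furthest was Aldh1a3, 1,3BD over water in ObF1, at -3.99 with a pseudocount of 1 CPM, against -6.24 with one of 0.0796 CPM. Library totals shifted the median gene of the parental difference to -0.0950, against 0.0107 with the authors' scaling, and that of 1,3BD minus water to 0.192, against -0.0597. Against 25 higher and 13 lower genes in ObF1, a pseudocount of 1 CPM called 8 and 5, no filter on low values 196 and 156, a mean of at least 5 CPM 10 and 5, DESeq2 69 and 48, and no covariate 0 and 0 (39 at an unadjusted p under 0.05 in limma). Library totals called 16 higher. Leaving out each library, which also drops the covariate, left 0 higher and 0 to 2 lower in ObF1 (2 without LnF1 1,3BD and 1 without ObF1 water). For 1,3BD these fits called 668 to 1926 higher, against 2466, and 1232 to 2731 lower, against 3189, with the fewest without LnF1 water. For the other retinoid genes, no filter called 3 and DESeq2 called 1 between parental groups, against 0. Leaving out each library called 2 to 6 higher with 1,3BD (2 without LnF1 water, ObF1 water or ObF1 1,3BD, and 6 without LnF1 1,3BD), against 10, and 4 to 7 lower, against 10, with 5 without LnF1 water or ObF1 water and 4 without ObF1 1,3BD. The parental difference of Tgm2 was -1.16 without LnF1 1,3BD, -1.76 without ObF1 water, 3.04 without LnF1 water and 3.64 without ObF1 1,3BD. Each of these fits sets libraries of different treatments against each other. Filters and left-out libraries change the genes or samples entering, and for the other settings the cause was not tested. Genes with few reads are limited by depth: Crabp1, Rarb, Aldh1a3 in both 1,3BD libraries, and Aldh1a2 in LnF1 1,3BD (19 reads).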
